A study of Mus musculus with 16 samples.

Results

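The genes described here are the C-type lectins and Siglecs, a set of 46 protein-coding genes of the 45777 genes in the deposited table. They were taken by symbol: every gene whose symbol starts with Clec and a digit, with Siglec or with Cd209, together with Cd33 and Mgl2. A pair of symbols that fit these patterns was left out by the rule. The rule uses symbols and gene type, not measured values, although the set was proposed with earlier results of these data known. By textbook role they formed 9 lectins of the Dectin-2 cluster, 6 of the Dectin-1 cluster, 7 Siglecs, 9 endocytic galactose and mannose lectins, 8 Clec2 ligands and 7 secreted, vascular and other genes.

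Bulk RNA came from the epididymal fat pad, a visceral white adipose depot, of male mice. The OE mice (A-LTA4HOE) overexpress LTA4H, the enzyme that makes leukotriene B4, in adipocytes, and the Ctrl mice are their control mice. All 4 groups were put on a high-fat diet (60 kcal% fat) at 4 weeks of age. The 8-week groups had been on it for 4 weeks and the 20-week groups for 16 weeks, with 4 libraries in each of Ctrl 8 weeks, OE 8 weeks, Ctrl 20 weeks and OE 20 weeks. Every group was fed this diet, so no lean group was compared, and age and time on the diet cannot be told apart. The strain, the promoter that drives the extra LTA4H, what the control mice carry and any sequencing batch are not given in the sources used here. The labels number the replicates but do not state that each is a separate animal, so p-values measure the spread between libraries.

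C-type lectins are surface or secreted proteins with a carbohydrate-recognition fold, and many are pattern recognition receptors of myeloid cells. Activating members such as Dectin-1, Dectin-2 and Mincle signal through the kinase Syk and the adaptor CARD9, either directly or through the adaptor Fcer1g, while inhibitory members recruit phosphatases. Siglecs bind sialic acid on cell surfaces and mostly restrain immune cells. In fat, the galactose-binding lectin Mgl2 and the Cd209 lectins are known from resident macrophages and dendritic cells that take up glycoproteins.

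The total count was 33.6 to 67.6 M per library. Lta4h itself was at 79.4 to 104 CPM (counts scaled to a common library size) in Ctrl and 251 to 427 CPM in OE at 8 weeks, and at 82.4 to 95.4 CPM in Ctrl and 239 to 286 CPM in OE at 20 weeks, so the genotype groups did not overlap. The 8 markers of mature adipocytes summed to between 23327 and 57014 TPM (transcripts scaled by gene length and library size) in every library, so defining markers of the labelled tissue were present. The 9 markers of epididymal epithelium summed to 7316 TPM in Ctrl replicate 4 and 4955 TPM in OE replicate 2 at 8 weeks, against 0.109 to 367 TPM in the other 14 libraries. On the first principal component OE replicate 1 at 20 weeks lay at 22.4, while the other 20-week libraries lay between -96.6 and -66.7. On the second component replicate 1 of both 8-week groups lay at -94.2 (Ctrl) and -91.8 (OE), apart from the other 14 libraries.

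Of the 46 genes, 39 passed the filter on low counts and were tested. The 7 that did not pass were Clec2e, Clec2f, Clec2h, Clec2j, Clec3a, Clec4b2 and Clec4f. Clec2j and Clec4f, the Kupffer cell lectin, had no count in any library, which at 3 counts per library allows up to 0.0444 to 0.0892 CPM. Of the 46 genes, 34 had a mean of at least 1 TPM in at least 1 group.

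Promoters are shown first for the pair of genes with the smallest adjusted p among those that rose with age in Ctrl and for the same among the endocytic lectins that fell in Ctrl, so that a reader can see the sequence next to the values. Each runs from 250 bases before to 50 bases after the RefSeq start on GRCm38.p6, 5′ to 3′ on the gene's own strand. Capitals mark GAGGAA on either strand (written TTCCTC where it lies on the other strand), the core bound by the myeloid transcription factor PU.1. They also mark TGANTCA, a loose form of the AP-1 motif in which N is any base. The AP-1 consensus has C or G at N, while the TGAATCA marked in Clec12a has A.
Clec12a (chr6:129349994-129350293, plus strand): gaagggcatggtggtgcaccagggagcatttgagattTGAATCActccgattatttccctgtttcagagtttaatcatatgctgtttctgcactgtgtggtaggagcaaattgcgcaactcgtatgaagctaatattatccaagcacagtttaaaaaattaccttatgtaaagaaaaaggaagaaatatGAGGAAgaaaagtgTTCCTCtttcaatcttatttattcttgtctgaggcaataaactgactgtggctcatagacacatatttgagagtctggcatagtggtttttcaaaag
Clec7a (chr6:129472730-129473029, minus strand): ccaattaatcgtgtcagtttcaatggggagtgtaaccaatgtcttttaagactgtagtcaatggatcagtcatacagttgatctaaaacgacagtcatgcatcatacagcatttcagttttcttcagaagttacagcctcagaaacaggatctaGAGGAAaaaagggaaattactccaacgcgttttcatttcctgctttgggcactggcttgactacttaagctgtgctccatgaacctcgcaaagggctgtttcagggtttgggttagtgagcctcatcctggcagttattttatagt
Mgl2 (chr11:70130107-70130406, plus strand): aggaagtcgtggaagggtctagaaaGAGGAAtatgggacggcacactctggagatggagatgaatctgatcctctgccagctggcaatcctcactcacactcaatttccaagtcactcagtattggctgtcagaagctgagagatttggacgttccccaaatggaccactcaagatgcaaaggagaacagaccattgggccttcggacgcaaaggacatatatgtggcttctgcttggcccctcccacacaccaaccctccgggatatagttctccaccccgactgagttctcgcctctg
Cd209d (chr8:3878450-3878749, minus strand): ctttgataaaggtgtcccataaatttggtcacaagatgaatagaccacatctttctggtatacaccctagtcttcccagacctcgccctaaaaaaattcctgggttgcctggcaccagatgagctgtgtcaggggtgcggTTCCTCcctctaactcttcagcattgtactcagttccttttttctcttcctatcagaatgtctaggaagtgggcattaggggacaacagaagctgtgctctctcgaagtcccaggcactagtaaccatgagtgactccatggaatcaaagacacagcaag

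RefSeq gave a promoter for 37 of the 46 genes. GAGGAA was present in 21 of these 37 (56.8%), against 27.5% of 17492 protein-coding promoters of the same length. TGANTCA was present in 7 (18.9%, against 7.1%), the STAT palindrome in 5 (13.5%, against 6.4%) and the E-box CACGTG in 1 (2.7%, against 7.9%). GAGGAA stood in 6 of the 10 promoters of genes that rose with age in Ctrl, in 4 of the 9 of genes that fell, and in 1 of the 6 Cd209 promoters. Where RefSeq lists more than 1 start, these counts use the first listed, and the later start of Clec4a3 holds 1 GAGGAA while that of Siglecg holds 0. A match describes letters in a window and is not a measured binding site.

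With age and time on the diet, the lectins moved in opposite directions by role. In Ctrl mice 13 of the 39 tested genes were higher at 20 than at 8 weeks (33.3%), while 19.6% of all 19189 tested genes were, and 9 were lower (23.1%), while 21.3% of all tested genes were (edgeR quasi-likelihood test, Benjamini-Hochberg adjusted p under 0.05 over all genes). The share of genes that rose was above the background and the share that fell was close to it. In OE mice 7 were higher (17.9%, background 13.1%) and 5 were lower (12.8%, background 9.91%). The median log2 fold change over the 39 genes was 0.28 in Ctrl and 0.07 in OE, against -0.05 and -0.03 over all genes tested. Counting libraries, 14 genes had every Ctrl library at 20 weeks above every one at 8 weeks (background 18.5% of genes) and 8 had every one below (background 14.8%). In OE these counts were 8 (background 12.9%) and 4 (background 9.50%). With 2 surrogate variables in the fit, the calls that held were Clec12a and Mgl2 in Ctrl, and Clec12a, Clec7a, Clec4a2, Siglec15 and Mgl2 in OE. Among the Ctrl calls that were lost, the log2 fold change of Clec4d went from 3.25 to 0.15, of Siglec1 from 1.85 to 0.36 and of Clec14a from -1.09 to -0.06. The rest of the lost Dectin-2 cluster calls in Ctrl shrank too, Clec4a2 from 2.02 to 0.47 and Clec4b1 from 1.70 to 0.59. Clec4a3 went from 1.38 to 0.24 and Clec4a1 from 1.13 to -0.24. Other lost Ctrl calls kept most of their change, with Siglec15 at 4.78, Cd209e at -2.26, Cd209c at -1.57 and Cd209a at -1.30.

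**Figure D1:**
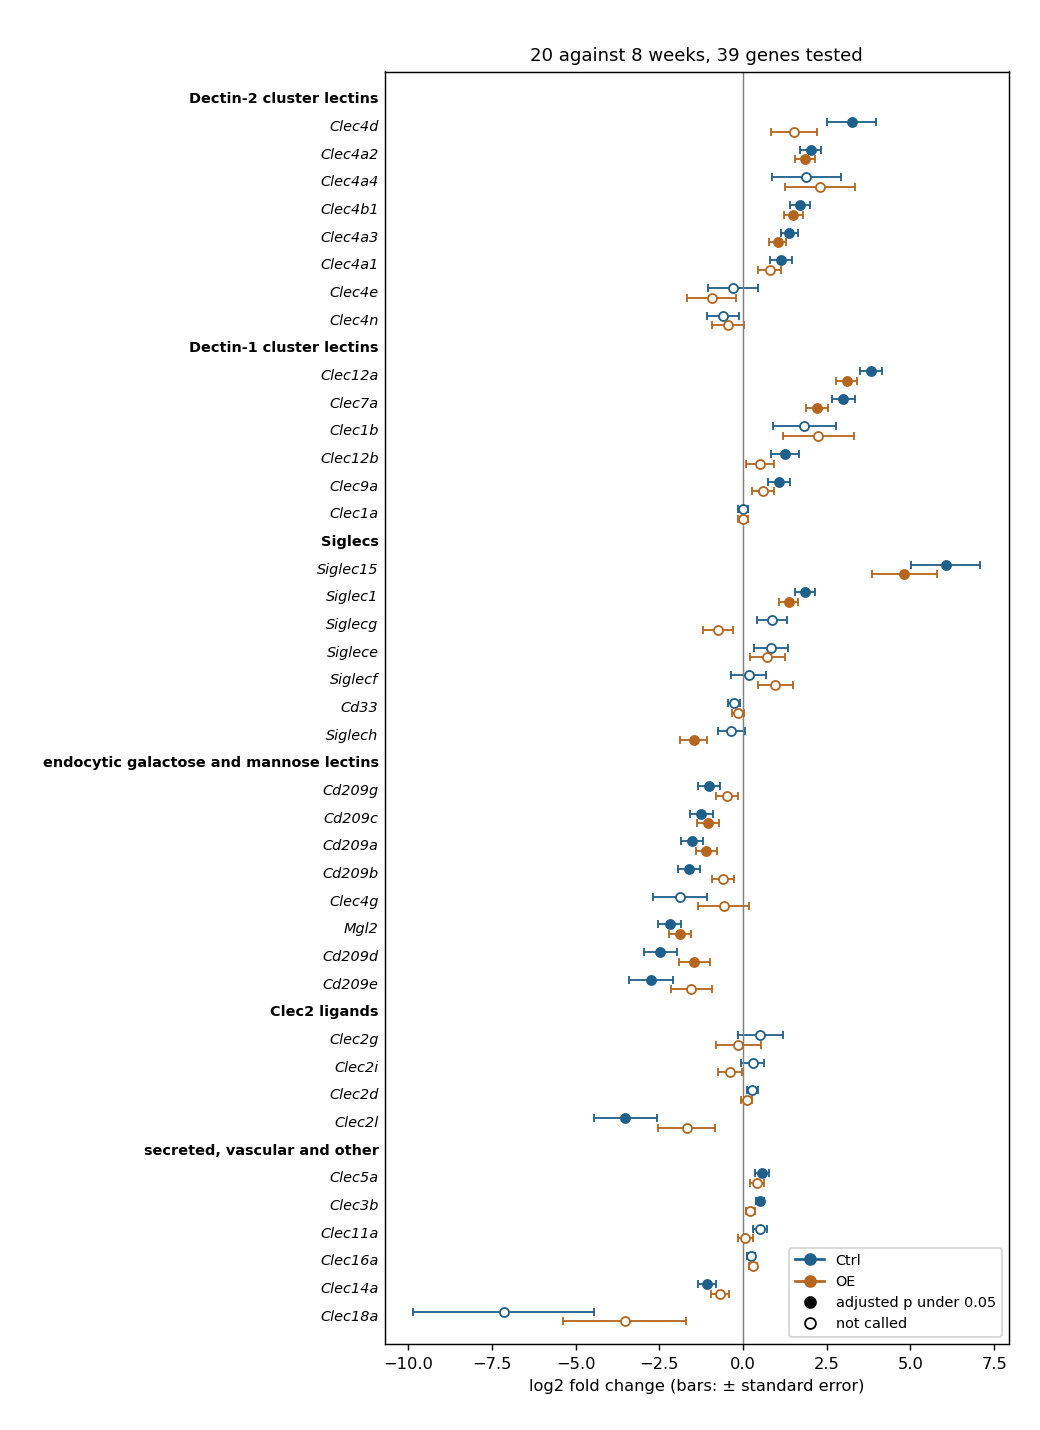
Log2 fold change of CPM between 20 and 8 weeks for the 39 tested genes, grouped by role, in Ctrl (blue) and OE (orange), with bars of 1 standard error and filled points for an adjusted p under 0.05. Dectin-2 cluster and Dectin-1 cluster genes lie mostly to the right of 0 and the endocytic lectins to the left, and the wide Clec18a estimates rest on libraries at 0.

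The Dectin-2 cluster on chromosome 6 encodes small receptors of myeloid cells. In Ctrl 5 of its 8 tested genes rose and in OE 3 did, and none fell. Clec4a2 (DCIR1), an inhibitory receptor, rose in both genotypes. Its values in Ctrl were 17.4, 9.65, 10.7 and 11 CPM at 8 weeks and 54.9, 45.7, 62.3 and 34.6 CPM at 20 weeks. In OE they were 16.0, 17.7, 9.76 and 12.2 CPM at 8 weeks and 25, 59.0, 48.0 and 70.7 CPM at 20 weeks. Neither genotype had an overlap between the ages, and the log2 fold change was 2.02 ± 0.31 (SE, n = 4 per group) in Ctrl (adjusted p = 2.62e-04) and 1.86 ± 0.30 in OE (adjusted p = 0.00106).

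Clec4b1 (DCAR), which couples to Fcer1g, was at 11, 4.86, 6.98 and 6.09 CPM in Ctrl at 8 weeks and 29.1, 22.5, 25.9 and 15.9 CPM at 20 weeks. In OE it was at 10.8, 7.27, 5.74 and 6.70 CPM at 8 weeks and 13.2, 26.0, 21.9 and 25.4 CPM at 20 weeks. It rose by a log2 fold change of 1.70 ± 0.29 in Ctrl (adjusted p = 5.74e-04) and 1.5 ± 0.29 in OE (adjusted p = 0.00254), again without overlap. Of the 50-base stretches of Clec4b1 9.7% also occur in Clec4a2. Of those of Clec4a2 8.2% occur in other genes, Clec4b1 among them, so reads could be split between the pair. Clec4a3, a DCIR paralogue, was at 27.7, 14.5, 17.8 and 17.4 CPM in Ctrl at 8 weeks and 68.1, 46.9, 50.4 and 35.8 CPM at 20 weeks. OE libraries held 28.9, 27.3, 17.5 and 18.8 CPM at 8 weeks and 29.6, 61.3, 47.8 and 49.9 CPM at 20 weeks. Its rise was 1.38 ± 0.26 in Ctrl (adjusted p = 0.00125) and 1.03 ± 0.26 in OE (adjusted p = 0.0122). Among the 20-week libraries OE replicate 1 was the lowest for Clec4a3, as it was for Clec4a2 and Clec4b1.

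Clec4d (MCL), a receptor for mycobacterial glycolipid, rose in Ctrl from 1.83, 0.95, 0.748 and 0.920 CPM to 10.7, 10.5, 14.2 and 6.86 CPM, a log2 fold change of 3.25 ± 0.73 (adjusted p = 0.00336). OE libraries held 1.98, 10.7, 0.917 and 1.38 CPM at 8 weeks and 4.32, 17.3, 5.87 and 15.3 CPM at 20 weeks. OE replicate 2 at 8 weeks, at 10.7 CPM, lay above 2 of the 20-week OE libraries, and the OE change of 1.52 ± 0.68 did not pass (adjusted p = 0.119). Clec4a1, another DCIR paralogue, was at 22.0, 12.1, 14.4 and 16.0 CPM in Ctrl at 8 weeks and 55.7, 25, 36.2 and 24 CPM at 20 weeks, a rise of 1.13 ± 0.34 (adjusted p = 0.0179). In OE it went from 23.3, 25.5, 15.6 and 19.7 CPM to 18.1, 60.0, 35.1 and 32.9 CPM with overlap, and the change of 0.79 ± 0.34 did not pass (adjusted p = 0.103). The Ctrl call for Clec4a1 was lost without Ctrl replicate 2 at 8 weeks (adjusted p = 0.0536) or Ctrl replicate 1 at 20 weeks (adjusted p = 0.0658).

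The activating receptors Mincle and Dectin-2 did not pass in either genotype. Clec4e (Mincle) was at 2.15, 0.669, 0.635 and 0.677 CPM in Ctrl at 8 weeks and 1.59, 0.514, 0.503 and 0.735 CPM at 20 weeks. OE libraries gave 2.01, 5.95, 0.651 and 0.611 CPM at 8 weeks and 0.540, 2.42, 0.707 and 1.13 CPM at 20 weeks, with log2 fold changes of -0.30 in Ctrl and -0.94 in OE that did not pass. Its highest library of all 16 was OE replicate 2 at 8 weeks. Clec4n (Dectin-2) was at 0.930, 3.63, 2.61 and 3.53 CPM in Ctrl at 8 weeks and 2.96, 1.41, 1.99 and 0.790 CPM at 20 weeks. In OE its values were 1.34, 4.85, 2.22 and 2.23 CPM at 8 weeks and 1.40, 2.45, 1.81 and 2.1 CPM at 20 weeks, and the changes of -0.59 ± 0.48 in Ctrl and -0.46 ± 0.48 in OE did not pass. Clec4a4 (DCIR2), an inhibitory dendritic cell receptor, stayed at or under 1.33 CPM in every library, at 0.372, 0, 0.295 and 0.311 CPM in Ctrl at 8 weeks and 0.985, 0.894, 1.13 and 0.654 CPM at 20 weeks. OE held 0.248, 0.539, 0 and 0 CPM at 8 weeks and 0.393, 1.14, 1.02 and 1.33 CPM at 20 weeks. The Ctrl groups did not overlap, but neither 1.89 ± 1.03 in Ctrl nor 2.29 ± 1.05 in OE passed, and 15.7% of its 50-base stretches also occur in Clec4a2, so reads could be split between the pair. Clec4b2 did not pass the filter and ranged from 0 to 0.191 CPM.

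The Dectin-1 cluster held the pair of genes with the smallest adjusted p among the members that rose. In Ctrl 4 of its 6 tested genes rose and in OE 2 did, and none fell. Clec12a (MICL), an inhibitory receptor that recognises uric acid crystals, was at 12.2, 9.61, 9.93 and 16.4 CPM in Ctrl at 8 weeks and 163, 195, 204 and 119.8 CPM at 20 weeks. The OE values were 11.7, 26.3, 11.4 and 13.2 CPM at 8 weeks and 75.3, 165, 138 and 155 CPM at 20 weeks. Every 20-week library lay above every 8-week library, the lowest at 75.3 CPM against the highest at 26.3 CPM. The log2 fold change was 3.82 ± 0.33 in Ctrl, or 14.1-fold (adjusted p = 2.29e-05), and 3.09 ± 0.32 in OE, or 8.51-fold (adjusted p = 1.31e-04).

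Clec7a (Dectin-1), the activating receptor for fungal β-glucan, was at 22.7, 12.4, 12.6 and 15.1 CPM in Ctrl at 8 weeks and 85.8, 138, 153 and 121 CPM at 20 weeks. OE libraries held 24.4, 35.9, 12.4 and 16.7 CPM at 8 weeks and 65.5, 91.8, 129 and 131 CPM at 20 weeks. The ages again did not overlap in either genotype, with 2.99 ± 0.34 in Ctrl (adjusted p = 5.40e-05) and 2.22 ± 0.33 in OE (adjusted p = 6.98e-04). Clec9a (DNGR-1), which marks cross-presenting dendritic cells and binds actin of dead cells, was at 2.34, 2.31, 1.86 and 4.43 CPM in Ctrl at 8 weeks and 7.39, 4.93, 4.95 and 5.80 CPM at 20 weeks. In OE it was at 2.01, 5.12, 2.04 and 4.02 CPM at 8 weeks and 4.74, 6.69, 4.03 and 4.28 CPM at 20 weeks. It rose in Ctrl by 1.07 ± 0.34 (adjusted p = 0.0217) and did not pass in OE at 0.58 ± 0.33 (adjusted p = 0.222). The Ctrl call was lost without Ctrl replicate 2 (adjusted p = 0.0580) or 3 (0.0633) at 8 weeks, or without Ctrl replicate 1 at 20 weeks (0.0597), and Clec9a shares 184 exon bases on the same strand with Clec1b. Beside it, the 7 markers of conventional dendritic cells summed to 42.3 to 71.4 TPM at 8 weeks and 106 to 132 TPM at 20 weeks in Ctrl, and 2 of the 7, Irf8 and Batf3, passed as higher while 1, Itgae, passed as lower. In OE this sum was 36.9 to 64.4 TPM and 82.8 to 111 TPM, and only Irf8 passed as higher and Itgae as lower. Irf8 alone went from a mean of 37.2 to 109 CPM in Ctrl and from 33.8 to 93.5 CPM in OE. Zbtb46 (-0.27 ± 0.20 in Ctrl and -0.21 ± 0.20 in OE) and Xcr1 (0.23 ± 0.27 and -0.22 ± 0.27) did not pass. Flt3 (0.88 ± 0.36 and 0.03 ± 0.36) and Ccr7 (1.44 ± 0.56 and 0.08 ± 0.56) did not pass either. The part of these markers in the Clec9a result was not tested.

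Clec12b, an inhibitory receptor at 0.0797 to 0.311 CPM in Ctrl at 8 weeks and 0.377 to 0.550 CPM at 20 weeks, passed in Ctrl at 1.25 ± 0.43 (adjusted p = 0.0313). That call was lost when any of Ctrl replicates 1, 2 or 3 at 8 weeks or Ctrl replicates 1 or 2 at 20 weeks was left out (adjusted p of 0.0517 to 0.0801). In OE Clec12b was at 0.196 to 0.520 CPM at 8 weeks and 0.383 to 0.707 CPM at 20 weeks and did not pass (0.50 ± 0.42). Clec1a, a lectin of endothelium, did not pass in either genotype. It was at 9.08, 8.12, 8.05 and 9.11 CPM in Ctrl at 8 weeks and 9.65, 8.20, 7.41 and 9.21 CPM at 20 weeks. OE libraries gave 10.8, 7, 10.6 and 7.97 CPM at 8 weeks and 9.55, 8.77, 10.3 and 7.46 CPM at 20 weeks, with log2 fold changes of 0.00 ± 0.15 and -0.01 ± 0.15. Clec1b (CLEC-2), the platelet receptor for podoplanin, reached at most 0.704 CPM, and its changes of 1.83 ± 0.93 in Ctrl and 2.25 ± 1.06 in OE did not pass.

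**Figure D2:**
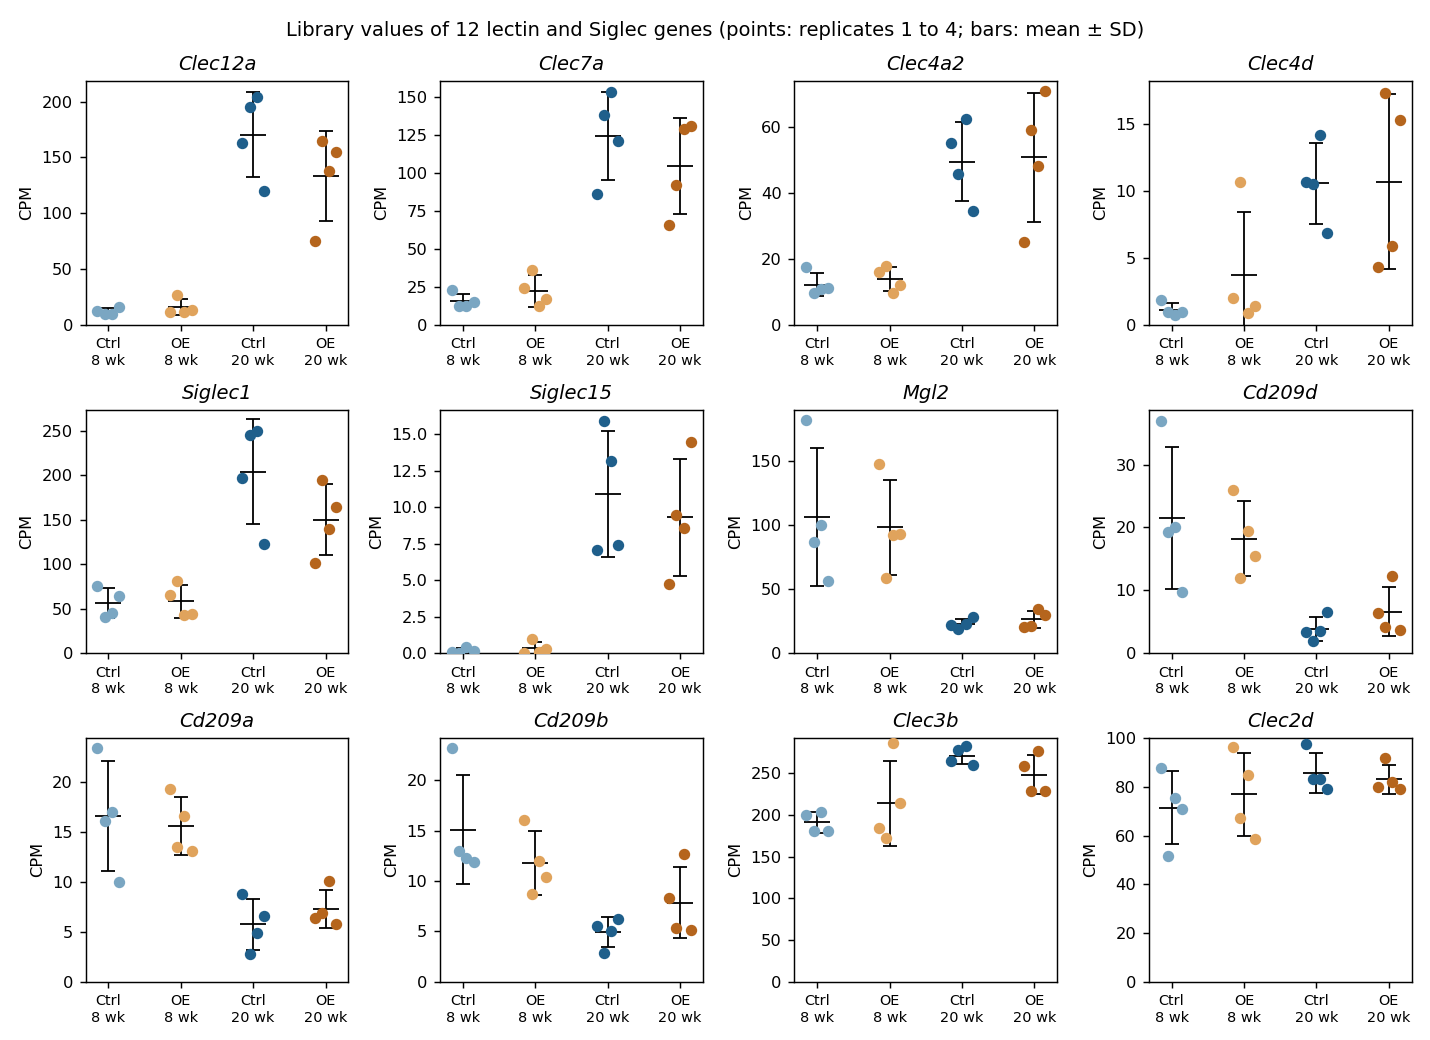
CPM of 12 genes in every library, by group, with the mean and SD of the 4 libraries. Clec12a, Clec7a, Clec4a2, Siglec1 and Siglec15 were higher at 20 weeks in both genotypes, Mgl2 was lower, and Clec2d did not pass in either direction.

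Among the Siglecs a pair rose in both genotypes. Siglec1 (sialoadhesin, CD169), a macrophage receptor for sialylated ligands, was at 75.6, 40.3, 44.9 and 64.7 CPM in Ctrl at 8 weeks and 197, 245, 249.9 and 123 CPM at 20 weeks. OE libraries held 65.2, 81.7, 42.5 and 44.3 CPM at 8 weeks and 101, 195, 140.1 and 164 CPM at 20 weeks. No library overlapped between ages within a genotype, and the rises were 1.85 ± 0.29 in Ctrl (adjusted p = 3.54e-04) and 1.36 ± 0.29 in OE (adjusted p = 0.00456).

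Siglec15, a receptor known from osteoclasts that couples to Tyrobp, was near the detection limit at 8 weeks, at 0.106, 0, 0.408 and 0.135 CPM in Ctrl and 0, 0.997, 0.0591 and 0.262 CPM in OE. At 20 weeks it was at 7.10, 15.9, 13.2 and 7.44 CPM in Ctrl and 4.74, 9.48, 8.56 and 14.5 CPM in OE. The lowest 20-week library held 193 counts, while the highest 8-week library, OE replicate 2, held 37. The fitted log2 fold changes were 6.05 ± 1.04 in Ctrl (adjusted p = 6.01e-04) and 4.82 ± 0.98 in OE (adjusted p = 0.00344), with wide errors beside the few counts at 8 weeks. On the TPM scale, which adjusts for length, Siglec15 went from rank 39 of the 46 genes to rank 16 in Ctrl and from 37 to 18 in OE.

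The other Siglecs, which mostly carry inhibitory motifs, showed no call in Ctrl. Siglech, a Tyrobp-coupled receptor of plasmacytoid dendritic cells, was at 1.97, 2.50, 1.97 and 2.44 CPM in Ctrl at 8 weeks and 2.40, 0.596, 1.99 and 1.96 CPM at 20 weeks. The OE values were 2.70, 3.26, 3.52 and 2.16 CPM at 8 weeks and 1.69, 0.420, 1.02 and 1.01 CPM at 20 weeks, without overlap, and Siglech fell, at a log2 fold change of -1.48 ± 0.41 (adjusted p = 0.0187), while the Ctrl change was -0.35 ± 0.40 (adjusted p = 0.502). The OE call was lost without OE replicate 3 at 8 weeks (adjusted p = 0.0542), OE replicate 2 at 20 weeks (0.0508) or OE replicate 4 at 20 weeks (0.0544). The difference of the age changes between genotypes was -1.13 ± 0.57 (adjusted p = 0.982) and did not pass. Of the 7 markers of plasmacytoid dendritic cells 0 passed as lower in OE and 1, Runx2, passed as higher (2.01 ± 0.30, adjusted p = 7.29e-04). Spib (-1.45 ± 0.69) and Ly6d (-1.96 ± 1.09) did not pass, and the median over the 7 was -0.12. In Ctrl 0 passed as lower and 2, Runx2 and Spib, as higher. The sum of the 7 in OE was 183 to 236 TPM at 8 weeks and 171 to 247 TPM at 20 weeks. The part of these markers in the Siglech result was not tested.

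Siglecg, a B cell Siglec, was at 2.44, 1.49, 1.41 and 1.94 CPM in Ctrl at 8 weeks and 6.72, 1.27, 2.56 and 2.56 CPM at 20 weeks. Ctrl replicate 1 at 20 weeks stood highest, and in the same library the 6 B cell markers summed to 123 TPM, against 21.0 to 36.2 TPM in the other Ctrl libraries at 20 weeks and 5.31 to 15 TPM at 8 weeks. In OE Siglecg was at 2.35, 3.50, 2.13 and 1.33 CPM at 8 weeks and 1.37, 2.15, 1.23 and 0.812 CPM at 20 weeks, beside B cell marker sums of 9.35 to 31.4 TPM and 7.56 to 15.6 TPM. Its changes with age, 0.85 ± 0.45 in Ctrl and -0.74 ± 0.45 in OE, did not pass. All 6 B cell markers passed as higher in Ctrl and 0 in OE, and their part in the Siglecg values was not tested.

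Cd33 was at 10.1, 9.70, 10.3 and 14.7 CPM in Ctrl at 8 weeks and 6.55, 9.13, 11.2 and 10.4 CPM at 20 weeks. In OE it was at 15.3, 14.1, 11.6 and 11.2 CPM at 8 weeks and 12.3, 10.4, 10.4 and 13.8 CPM at 20 weeks, with changes of -0.26 ± 0.18 and -0.15 ± 0.18 that did not pass. Siglece, an inhibitory Siglec of neutrophils and macrophages, was at 1.27, 1.58, 2.11 and 3.33 CPM in Ctrl at 8 weeks and 7.68, 2.52, 2.76 and 1.83 CPM at 20 weeks. Its OE values were 2.28, 2.91, 3.40 and 3.30 CPM at 8 weeks and 1.99, 10.4, 3.48 and 3.67 CPM at 20 weeks, and the highest in each genotype at 20 weeks were Ctrl replicate 1 and OE replicate 2. Neither 0.83 ± 0.52 in Ctrl nor 0.72 ± 0.52 in OE passed. Siglecf, known from eosinophils, was at 1.75, 0.194, 0.454 and 0.690 CPM in Ctrl at 8 weeks, 0.637, 1.16, 0.829 and 0.817 CPM in Ctrl at 20 weeks, 1.14, 0.754, 0.414 and 0.502 CPM in OE at 8 weeks and 1.06, 1.38, 1.02 and 2.03 CPM in OE at 20 weeks. Its changes of 0.16 ± 0.53 and 0.96 ± 0.53 did not pass either.

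The endocytic lectins of the set went the other way. In Ctrl 7 of 8 tested genes fell and in OE 4 did, and none rose. This does not extend to all such receptors, since Mrc1 and Mrc2, lectin receptors outside the set, rose in both genotypes. The mean of Mrc1 went from 201 to 467 CPM in Ctrl (adjusted p = 5.05e-04) and from 227 to 383 CPM in OE (adjusted p = 0.0150). That of Mrc2 went from 52.4 to 209.9 CPM in Ctrl (adjusted p = 0.00126) and from 51.3 to 216 CPM in OE (adjusted p = 0.00216). Mgl2 (CD301b), which binds galactose and N-acetylgalactosamine, was at 182, 87.1, 99.7 and 56.1 CPM in Ctrl at 8 weeks and 21.9, 19.2, 23.2 and 28.1 CPM at 20 weeks. OE libraries held 148, 58.7, 92.6 and 93.1 CPM at 8 weeks and 20.6, 21.6, 34.3 and 30.0 CPM at 20 weeks. The lowest 8-week library, at 56.1 CPM, lay above the highest 20-week library, at 34.3 CPM. Mgl2 fell, at a log2 fold change of -2.20 ± 0.34 in Ctrl (adjusted p = 2.91e-04) and -1.88 ± 0.33 in OE (adjusted p = 0.00165). Of its 50-base stretches 16.5% also occur in other genes, among them a paralogue outside the set, so its counts carry that uncertainty.

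The Cd209 genes on chromosome 8 are mouse relatives of the human receptor DC-SIGN. Cd209d was at 37, 19.2, 20.0 and 9.80 CPM in Ctrl at 8 weeks and 3.42, 1.95, 3.59 and 6.59 CPM at 20 weeks. OE libraries gave 25.9, 12.0, 19.5 and 15.4 CPM at 8 weeks and 6.33, 4.17, 12.3 and 3.72 CPM at 20 weeks, where OE replicate 3 at 20 weeks, at 12.3 CPM, reached past the lowest 8-week library. It fell, at a log2 fold change of -2.47 ± 0.48 in Ctrl (adjusted p = 0.00141) and -1.46 ± 0.46 in OE (adjusted p = 0.0357). Cd209a was at 23.4, 16.1, 17 and 10 CPM in Ctrl at 8 weeks and 8.78, 2.73, 4.93 and 6.54 CPM at 20 weeks. In OE its values were 19.3, 13.5, 16.6 and 13.1 CPM at 8 weeks and 6.38, 6.92, 10.1 and 5.79 CPM at 20 weeks. The falls were -1.53 ± 0.32 in Ctrl (adjusted p = 0.00227) and -1.10 ± 0.32 in OE (adjusted p = 0.0230), with no overlap in either.

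Cd209b (SIGNR1), known from marginal zone macrophages, was at 23.2, 13.0, 12.3 and 11.9 CPM in Ctrl at 8 weeks and 5.56, 2.84, 5.03 and 6.24 CPM at 20 weeks. OE libraries held 16.1, 8.75, 12.0 and 10.4 CPM at 8 weeks and 8.30, 5.29, 12.7 and 5.14 CPM at 20 weeks and overlapped. It fell in Ctrl, at a log2 fold change of -1.62 ± 0.34 (adjusted p = 0.00214), while the OE change of -0.59 ± 0.33 did not pass (adjusted p = 0.209). Cd209c was at 3.82, 2.59, 1.88 and 2.42 CPM in Ctrl at 8 weeks and 0.637, 0.812, 1.66 and 1.39 CPM at 20 weeks. The OE values were 4.09, 4.09, 2.19 and 2.82 CPM at 8 weeks and 1.64, 1.26, 2.28 and 1.17 CPM at 20 weeks. It fell, at a log2 fold change of -1.25 ± 0.35 in Ctrl (adjusted p = 0.0120) and -1.05 ± 0.34 in OE (adjusted p = 0.0397), and 16.5% of its 50-base stretches recur elsewhere.

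Cd209e was at 5.05, 1.32, 2.15 and 0.352 CPM in Ctrl at 8 weeks and 0.464, 0.162, 0.302 and 0.381 CPM at 20 weeks. In OE its values were 2.97, 1.05, 1.27 and 1.75 CPM at 8 weeks and 0.442, 0.790, 0.759 and 0.406 CPM at 20 weeks. It fell in Ctrl, at a log2 fold change of -2.75 ± 0.65 (adjusted p = 0.00486) although Ctrl replicate 4 at 8 weeks lay below Ctrl replicates 1 and 4 at 20 weeks, and the OE change of -1.55 ± 0.62 did not pass. Cd209g was at 19.6, 14.1, 12.2 and 15.4 CPM in Ctrl at 8 weeks and 10.3, 3.28, 5.28 and 11.1 CPM at 20 weeks, a log2 fold change of -1.03 ± 0.33 (adjusted p = 0.0242). In OE it was at 12.7, 11.6, 13.1 and 10 CPM at 8 weeks and 6.70, 9.88, 11.9 and 5.48 CPM at 20 weeks (-0.48 ± 0.33, not passed). The Cd209g call was lost without Ctrl replicate 1 at 8 weeks (adjusted p = 0.0575) or Ctrl replicate 2 (0.0558) or 3 (0.0750) at 20 weeks, and 38.7% of its 50-base stretches also occur in a paralogue outside the set. Clec4g (LSECtin), a lectin of sinusoidal endothelium, was at most 0.669 CPM, with changes of -1.89 ± 0.80 and -0.58 ± 0.76 that did not pass.

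The OE calls for the Cd209 genes were lost when single libraries were left out. Leaving out OE replicate 1 at 8 weeks, OE replicate 2 at 20 weeks or OE replicate 4 at 20 weeks ended the calls for Cd209a, Cd209c and Cd209d together, with adjusted p of 0.0572 to 0.120. OE replicate 3 at 8 weeks did so for Cd209a (0.0560) and Cd209d (0.0768), and OE replicate 4 at 8 weeks and OE replicate 1 at 20 weeks did so for Cd209c (0.0591 and 0.0546) and Cd209d (0.0563 and 0.0541). The Cd209c call also ended without OE replicate 2 (0.0843) or Ctrl replicate 2 (0.0522) at 8 weeks and with a replicate block (0.0703). The call for Mgl2 held under each alternative run in both genotypes.

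**Figure D3:**
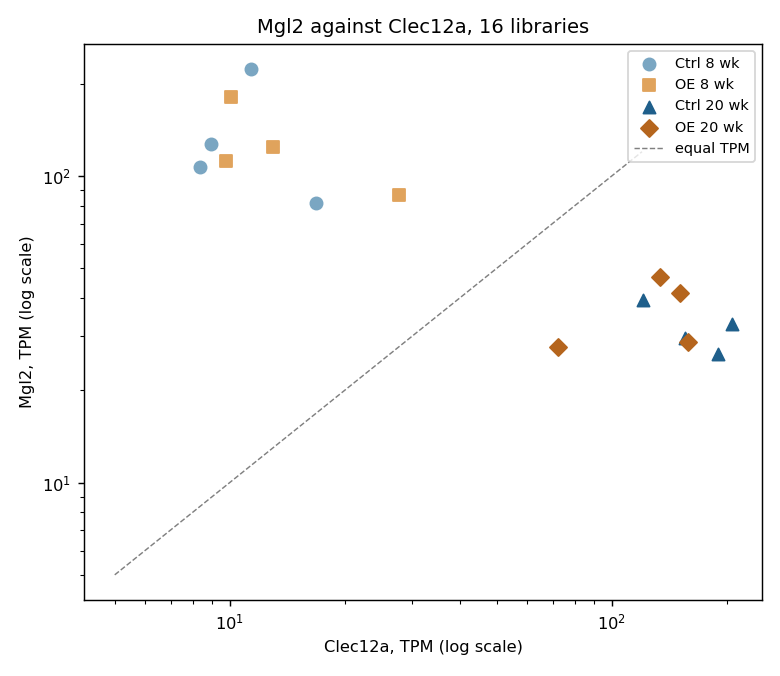
TPM of Mgl2 against Clec12a in the 16 libraries on log axes, by group, with a dashed line of equal TPM. The 8-week libraries lie above the line, with ratios of 3.12 to 19.7, and the 20-week libraries below it, with ratios of 0.138 to 0.382.

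Because Mgl2 and Clec12a had the smallest adjusted p among the members that fell and rose, their ratio was taken per library on the TPM scale, a choice made after the values were seen. Mgl2 exceeded Clec12a in all 8 libraries at 8 weeks, by 4.84- to 19.7-fold in Ctrl and 3.12- to 17.9-fold in OE. At 20 weeks the ratio was 0.138 to 0.327 in Ctrl and 0.183 to 0.382 in OE. In the ranking of the 46 genes by mean TPM, Mgl2 went from rank 2 to rank 10 in Ctrl and from 3 to 10 in OE, while Clec12a went from 14 to 2 and from 13 to 3.

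Several Clec2 genes encode ligands of NK cell receptors. Clec2d (Clr-b), the ligand of an inhibitory Nkrp1 receptor, was at 87.7, 51.6, 75.4 and 70.8 CPM in Ctrl at 8 weeks and 97.8, 83.3, 83.3 and 79.0 CPM at 20 weeks. OE libraries gave 96.5, 67.4, 84.9 and 58.8 CPM at 8 weeks and 79.8, 91.9, 82.0 and 79.1 CPM at 20 weeks, with changes of 0.27 ± 0.16 and 0.11 ± 0.16 that did not pass. On the TPM scale it stayed within ranks 2 to 3 of the 46 genes in all 4 groups. Clec2i (Clr-g) was at 4.38, 1.90, 2.04 and 3.25 CPM in Ctrl at 8 weeks, 5.48, 2.25, 2.79 and 3.54 CPM in Ctrl at 20 weeks, 4.19, 4.15, 2.16 and 2.71 CPM in OE at 8 weeks and 2.36, 2.2, 3.69 and 1.83 CPM in OE at 20 weeks, and its changes of 0.28 ± 0.35 and -0.39 ± 0.35 did not pass.

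Clec2l was the only one of the 4 tested Clec2 genes to be called. It was at 0.212, 1.10, 1.5 and 0.758 CPM in Ctrl at 8 weeks and 0.0869, 0.108, 0 and 0.109 CPM at 20 weeks, a log2 fold change of -3.52 ± 0.94 (adjusted p = 0.0100) that rests on at most 4 counts in each 20-week Ctrl library. The OE values were 0.0743, 1.35, 0.207 and 1.38 CPM at 8 weeks and 0.319, 0.173, 0.183 and 0.248 CPM at 20 weeks (-1.69 ± 0.85, not passed). Clec2g, at 0.0491 to 0.753 CPM, did not pass. Clec2e and Clec2f stayed at or under 0.226 CPM, and Clec2h had counts in only 1 library.

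Of the secreted, vascular and other genes, Clec3b (tetranectin), a secreted plasminogen-binding protein, ranked first on the TPM scale in all 4 groups. Its group means were 393 TPM in Ctrl and 441 TPM in OE at 8 weeks, and 595 TPM and 535 TPM at 20 weeks. In CPM it was at 200, 181, 204 and 180.2 in Ctrl at 8 weeks and 264, 278, 282 and 260.2 at 20 weeks, a rise of 0.50 ± 0.13 (adjusted p = 0.00860) without overlap. In OE it was at 184, 172, 286 and 214 CPM at 8 weeks and 258, 229, 277 and 229 CPM at 20 weeks, and the change of 0.21 ± 0.13 did not pass (adjusted p = 0.255). OE replicate 3 at 8 weeks was the highest of all 16 libraries.

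Clec14a, an endothelial lectin that binds Mmrn2, was at 15.1, 32.5, 18.6 and 21.9 CPM in Ctrl at 8 weeks and 10.5, 9.61, 9.57 and 11.8 CPM at 20 weeks. It fell in Ctrl, at a log2 fold change of -1.09 ± 0.27 (adjusted p = 0.00680), and its ligand Mmrn2 fell, at a log2 fold change of -0.71 ± 0.15 (adjusted p = 0.00248). Mmrn2 also fell in OE, at -0.54 ± 0.15 (adjusted p = 0.0188). In OE Clec14a was at 17.3, 21.2, 28 and 18.6 CPM at 8 weeks and 18.3, 10.2, 16.8 and 7.87 CPM at 20 weeks, a change of -0.68 ± 0.27 that did not pass (adjusted p = 0.0840). All 6 endothelial markers fell in Ctrl and 0 passed in OE. Their sum in Ctrl was 606 to 731 TPM at 8 weeks and 377 to 503 TPM at 20 weeks, and in OE 628 to 721 TPM and 361 to 694 TPM. The part of these markers in the Clec14a result was not tested.

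Clec5a (MDL-1), a Tyrobp-coupled myeloid receptor, was at 3.56, 2.76, 2.06 and 2.50 CPM in Ctrl at 8 weeks and 4.87, 3.17, 4.67 and 3.21 CPM at 20 weeks. Its rise of 0.55 ± 0.21 passed narrowly (adjusted p = 0.0495) and was lost under 18 of the 26 alternatives, 12 of which left out a single library. OE libraries gave 3.42, 3.10, 2.66 and 3.38 CPM at 8 weeks and 3.46, 4.59, 3.67 and 5.03 CPM at 20 weeks (0.41 ± 0.21, not passed). Clec11a, a secreted growth factor of bone, was at 5.79, 10.9, 12.1 and 9.28 CPM in Ctrl at 8 weeks, 13.3, 12.6, 16.2 and 11.4 CPM in Ctrl at 20 weeks, 10.1, 10.5, 12.5 and 10.8 CPM in OE at 8 weeks and 10.4, 12.4, 8.54 and 14.7 CPM in OE at 20 weeks. Clec16a, an endosomal protein that carries the family name, was at 68.6, 56.9, 52.1 and 54 CPM in Ctrl at 8 weeks, 66.3, 68.8, 59.3 and 77.7 CPM in Ctrl at 20 weeks, 73.7, 54.1, 52.7 and 55.6 CPM in OE at 8 weeks and 71.9, 71.6, 66.1 and 78.9 CPM in OE at 20 weeks. Neither gene passed in either genotype. Clec18a was at 0 in 4 of 4 Ctrl and 3 of 4 OE libraries at 20 weeks and at most 1.64 CPM at 8 weeks, and it did not pass. Clec3a had counts in only 1 library.

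Summed by role in TPM, the weights of the set shifted. The endocytic lectins summed to 175 to 412 TPM in Ctrl and 187 to 315 TPM in OE at 8 weeks, and to 46.4 to 99.4 TPM and 77.6 to 135 TPM at 20 weeks. As a share of all 46 genes this was 18.5 to 35.3% in Ctrl and 17.7 to 29.6% in OE at 8 weeks, and 3.07 to 7.22% and 5.31 to 9% at 20 weeks. Dectin-1 cluster lectins went from 25.6 to 42.4 TPM in Ctrl and 28.3 to 74.2 TPM in OE at 8 weeks to 249.6 to 367 TPM and 144 to 285 TPM at 20 weeks. The Siglecs summed to 21.1 to 39.8 TPM in Ctrl and 25 to 46.9 TPM in OE at 8 weeks, and to 57.3 to 103 TPM and 47.8 to 84.7 TPM at 20 weeks.

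**Figure D4:**
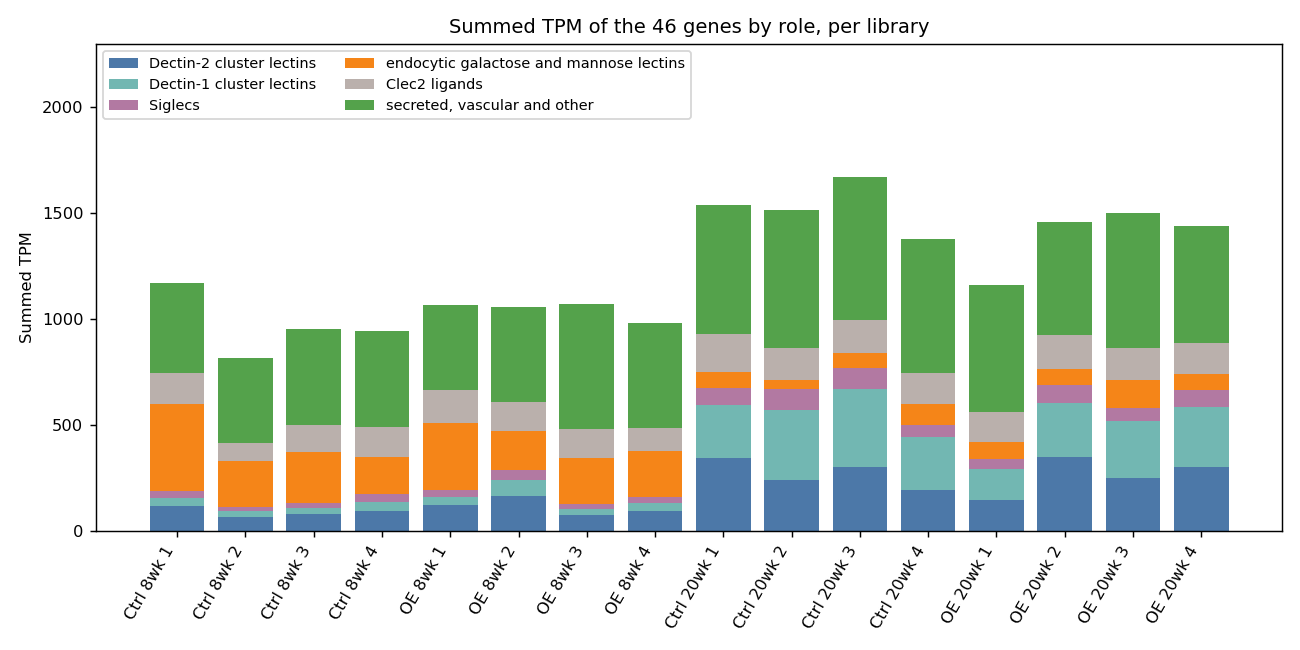
Summed TPM of the 46 genes by role in each of the 16 libraries. The endocytic lectins (orange) are the smaller part at 20 weeks and the Dectin-1 and Dectin-2 cluster lectins (blue-green and blue) the larger, while the secreted, vascular and other genes, mostly Clec3b, are the largest part in every library.

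Macrophage markers moved with these genes. The 12 markers summed to 1840 to 3360 TPM in Ctrl and 2334 to 5213 TPM in OE at 8 weeks, and to 8302 to 13417 TPM and 5494 to 12976 TPM at 20 weeks. All 12 passed as higher in Ctrl and 11 in OE. Other marker lists moved with age too: 5 of 6 mast cell markers were higher in each genotype, 4 of 8 mature adipocyte markers and 4 of 4 erythrocyte markers were lower in each, and 4 of 5 smooth muscle markers were lower in each. At 8 weeks the smooth muscle sum was 2941 TPM in Ctrl replicate 4 and 2806 TPM in OE replicate 2, the libraries with epididymal transcripts. The other 8-week libraries held 399.7 to 550.3 TPM, and the 20-week libraries 125 to 221 TPM in Ctrl and 189.8 to 330.4 TPM in OE. Of the 5 NK cell markers 3 were lower in Ctrl and 0 in OE, and of the 5 mesothelial markers 1 was lower in Ctrl and 4 in OE. Over all tested genes 19.6% were higher and 21.3% lower in Ctrl, and 13.1% and 9.91% in OE. The adipocyte sum was 39888 to 54916 TPM in Ctrl and 37457 to 57014 TPM in OE at 8 weeks, and 23327 to 37888 TPM and 26932 to 49051 TPM at 20 weeks. The lectins that rose did so beside this change, whereas Mgl2 and the called Cd209 genes fell beside it. In bulk tissue fewer cells of a type and less RNA per cell cannot be told apart, and the part of cell numbers in the lectin results was not tested.

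Most adaptor genes of the receptors rose. Of 20 adaptor and signalling genes, 16 were higher and 1 lower in Ctrl, with a median log2 fold change of 1.65. In OE 15 were higher and 1 lower, with a median of 1.29. Among all genes tested, 19.6% were higher and 21.3% lower in Ctrl, and 13.1% and 9.91% in OE. The medians over all genes were -0.05 in Ctrl and -0.03 in OE. On the log2 scale Tyrobp, the adaptor of Siglec15, Siglech and Clec5a, rose by 2.79 ± 0.30 in Ctrl (adjusted p = 4.51e-05) and 2.14 ± 0.29 in OE (adjusted p = 5.20e-04). Fcer1g, the adaptor of Clec4d, Clec4e, Clec4n and Clec4b1, rose by 2.12 ± 0.27 and 1.69 ± 0.26. The kinase Syk rose by 2.28 ± 0.34 and 1.73 ± 0.33, and Card9 by 1.84 ± 0.29 and 1.42 ± 0.28. Inpp5d, a phosphatase recruited by inhibitory receptors, rose by 1.98 ± 0.24 and 1.26 ± 0.23, and the phosphatase Ptpn11 was the gene that fell, with -0.62 ± 0.14 in Ctrl and -0.48 ± 0.14 in OE.

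Of the 25 tested genes for other lectin receptors, 11 were higher (44.0%) and 1 lower (4.00%) in Ctrl, and 9 were higher (36.0%) and 1 lower (4.00%) in OE. Cd72, a lectin-like B cell and macrophage receptor, rose by 4.50 ± 0.44 in Ctrl and 4.01 ± 0.43 in OE, and Cd22, a Siglec by structure, by 3.96 ± 0.51 and 2.73 ± 0.49. Thbd, thrombomodulin of endothelium, fell, at a log2 fold change of -1.37 ± 0.18 and -1.64 ± 0.18. Of the 24 tested genes that make, transfer or remove sialic acid, the ligand of Siglecs, 11 were higher (45.8%) and 6 lower (25%) in Ctrl, and 9 (37.5%) and 3 (12.5%) in OE. Over all tested genes 19.6% were higher and 21.3% lower in Ctrl, and 13.1% and 9.91% in OE, so the lower shares were near the background. St8sia4, a polysialyltransferase, rose by 1.42 ± 0.18 in Ctrl and 0.96 ± 0.17 in OE, and St6gal1, which adds α2,6-linked sialic acid, by 1.23 ± 0.17 and 0.67 ± 0.17. Slc35a1, the transporter of CMP-sialic acid, was lower at -0.51 ± 0.08 in Ctrl and -0.30 ± 0.08 in OE, and the sialyltransferase St3gal6 at -0.55 ± 0.16 and -0.85 ± 0.17. Of 11 protein ligands of these receptors, 5 were higher (45.5%) and 2 lower (18.2%) in Ctrl and 3 (27.3%) and 2 (18.2%) in OE, the Ctrl share of lower genes being near the background. Actb, whose filamentous product Clec9a binds, rose by 1.04 ± 0.18 in Ctrl and 0.81 ± 0.18 in OE. Cd24a, a ligand of Siglecg, fell, at a log2 fold change of -2.56 ± 0.65 in Ctrl and -2.26 ± 0.64 in OE.

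Most of the genes lie in 4 clusters. On mm10 the Dectin-2 cluster spans chr6:122921848-123289871, where 5 of 8 tested members were higher in Ctrl and 3 in OE. The Dectin-1 and Clec2 cluster spans chr6:128655105-129472785, where 4 of 9 tested members were higher in Ctrl and 2 in OE. Within it lie 6 other tested genes, among them Cd69 and Klrb1c, and of these 0 were higher and 1 was lower in each genotype. Clec4g and the Cd209 genes span chr8:3707066-4137707, where 6 of 7 tested members were lower in Ctrl and 3 in OE. The Siglec cluster at chr7:43351341-43672044, with Cd33, Siglece, Siglecf and Siglecg, had 0 of 4 called in either genotype. Beside these counts, 19.6% of all tested genes were higher and 21.3% lower in Ctrl, and 13.1% and 9.91% in OE. With so few genes, the 0 of 4 here and the 1 of 6 above are not read as traits of these loci. Siglec1 (chromosome 2), Siglec15 (chromosome 18) and Mgl2 (chromosome 11) lie apart from these.

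The age changes in Ctrl and OE come from separate libraries. All 7 genes higher in OE were among the 13 higher in Ctrl (100% of the OE list and 53.8% of the Ctrl list), where over all genes 91.8% of the OE list and 61.1% of the Ctrl list were shared. Of the 5 genes lower in OE, 4 were lower in Ctrl (80.0% of the OE list and 44.4% of the Ctrl list), where over all genes these were 84.3% and 39.3%. Siglech was the exception. The point estimates had the same sign in 35 of 39 genes, and in 31 of 39 the change, whatever its sign, was larger in Ctrl than in OE. The same shares over all genes were not taken. Over all genes more were called in Ctrl (3770 higher and 4083 lower) than in OE (2509 and 1902), so the 31 of 39 is not read as a trait of this set. The test of the difference between the age changes called 0 of 39 genes in either direction (background 0% of all genes), with 2 genes at an unadjusted p under 0.05 and 0 called by DESeq2 or limma voom. These 2 were Siglecg, at -1.59 ± 0.64 (adjusted p = 0.982), and Cd209b, at 1.03 ± 0.47 (adjusted p = 0.982). Next came Siglech, given above, and Clec4d at -1.74 ± 0.95 (adjusted p = 0.982).

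No lectin or Siglec was called between OE and Ctrl. At 8 weeks 0 of 39 genes were higher and 0 lower in OE than in Ctrl (background 0.0208% higher and 0% lower), with 1 at an unadjusted p under 0.05. At 20 weeks the counts were again 0 and 0 (background 0.0261% and 0%), with 1 at an unadjusted p under 0.05. Averaged over both ages they were 0 and 0 (background 0.0365% and 0%), with 2 at an unadjusted p under 0.05. DESeq2 and limma voom also called 0 members in each of these comparisons. The median log2 fold change over the 39 genes was 0.19 at 8 weeks and 0.07 at 20 weeks, against 0.00 and 0.02 over all genes.

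**Figure D5:**
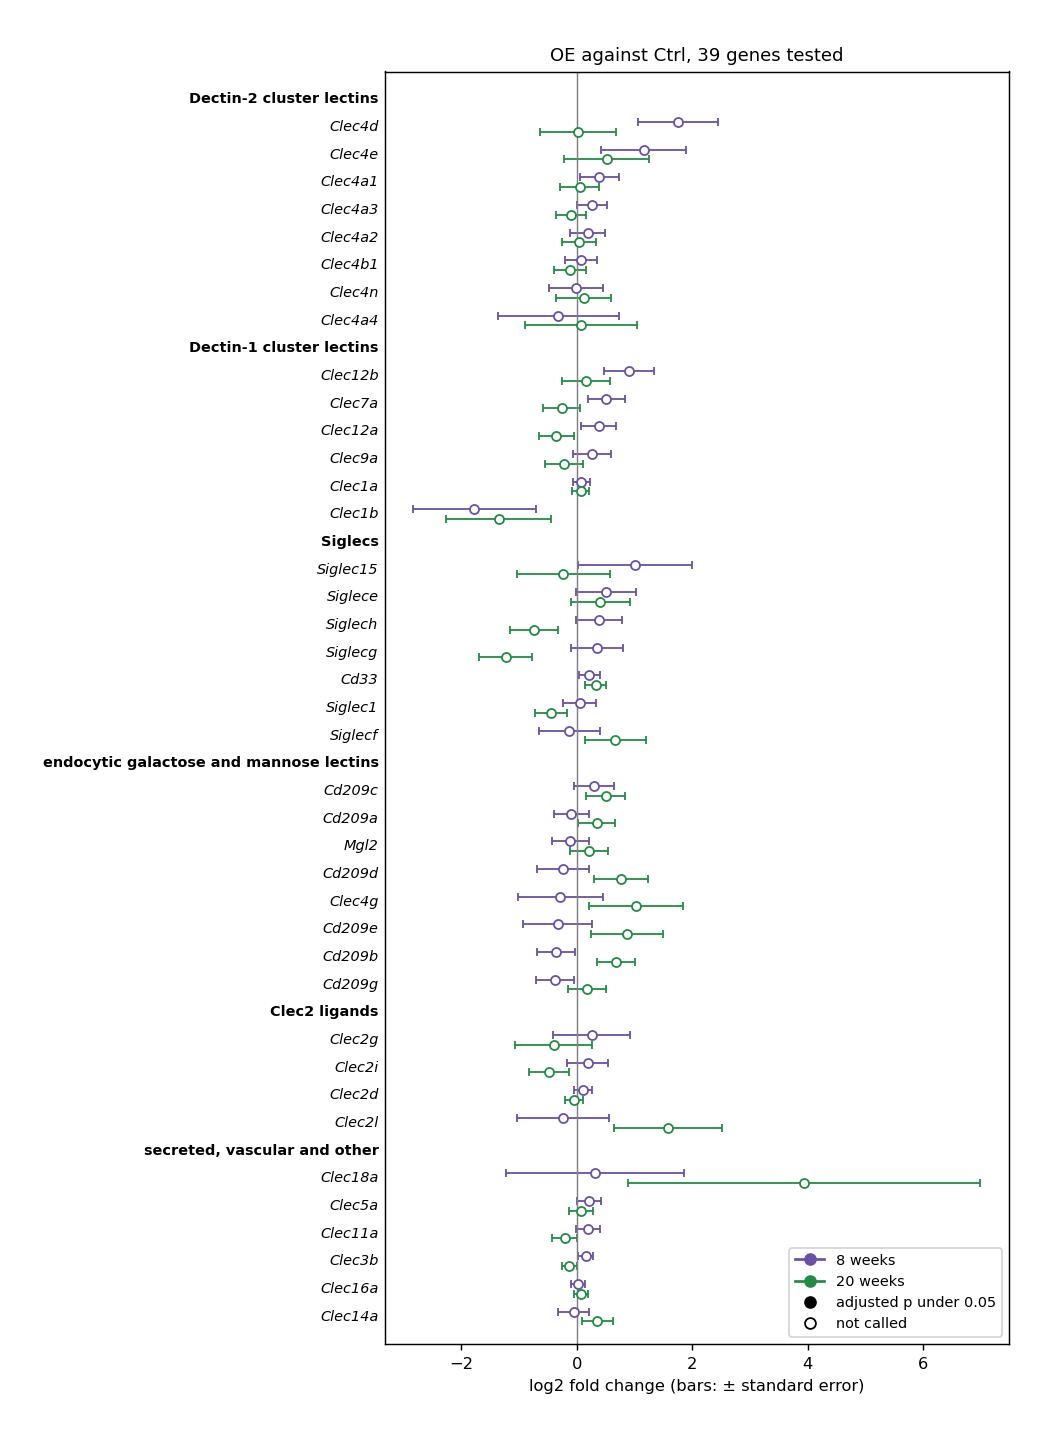
Log2 fold change of CPM between OE and Ctrl for the 39 tested genes at 8 weeks (purple) and 20 weeks (green), with bars of 1 standard error. Every point is open, since no gene passed an adjusted p of 0.05 at either age.

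At 8 weeks the smallest p belonged to Clec4d, at 1.75 ± 0.69 (adjusted p = 1). OE replicate 2 alone was high, at 10.7 CPM against 0.917 to 1.98 CPM in the other OE libraries, and without it the change was 0.37. That library also had the highest 8-week values of Clec4e, Clec12a, Clec7a and Siglec15, and the macrophage marker sum of 5213 TPM belongs to it, as does the epididymal sum of 4955 TPM. Their part in the result was not tested. Clec12b followed at 0.91 ± 0.43 (adjusted p = 1), then Clec1b at -1.77 ± 1.06 (adjusted p = 1) and Clec7a at 0.51 ± 0.32 (adjusted p = 1).

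At 20 weeks the smallest p belonged to Siglecg, at -1.23 ± 0.46 (adjusted p = 0.996). Without Ctrl replicate 1, the library with the B cell marker sum of 123 TPM, the change was -0.62. Cd209b followed at 0.68 ± 0.33 (adjusted p = 0.996), then Cd33 at 0.33 ± 0.18 (adjusted p = 0.996) and Siglech at -0.74 ± 0.41 (adjusted p = 0.996). For Clec12a and Mgl2 the genotype difference did not pass, at 0.38 ± 0.30 at 8 weeks and -0.35 ± 0.30 at 20 weeks for Clec12a, and -0.11 ± 0.32 and 0.21 ± 0.33 for Mgl2. By libraries alone, 0 genes were separated at 8 weeks (background 0.787% higher and 0.448% lower), and 1, Clec2l, was higher in every OE library at 20 weeks (background 1.24% higher and 1.49% lower). Averaged over the ages, the genes with the smallest p were Clec1b at -1.56 ± 0.70 (adjusted p = 1), Cd33 at 0.28 ± 0.13 (adjusted p = 1), Clec4d at 0.88 ± 0.48 (adjusted p = 1) and Clec12b at 0.54 ± 0.30 (adjusted p = 1). None of the 4 partner gene lists had a called gene in a comparison of the genotypes.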

How the data were processed

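Stranded TruSeq mRNA libraries were sequenced, per the labels. Reads were handled with bcl2fastq 2.20.0, Trimmomatic, HISAT2 2.1.0 and StringTie 2.1.3b on mm10, per the submitters' processing notes. The strand setting and annotation release are not given in the sources used here. The authors deposited read counts per gene, whole numbers that were not normalised, and these were tested. The deposited TPM values (transcripts scaled by length and library) served for levels between genes, and the deposited FPKM values were not used. Without a stated strand setting, reads of Clec4g and its antisense neighbour cannot be told apart.

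Counts were fitted in R 4.3.3 with edgeR 4.0.16 (filterByExpr at a minimum count of 10, TMM, robust quasi-likelihood, all 16 libraries in 4 groups, 12 residual degrees of freedom), which left 19189 genes. Benjamini-Hochberg adjustment ran over these, with calls under 0.05. CPM used TMM library sizes. The same steps were tested on simulated data. Alternatives were DESeq2 1.42.0, limma voom 3.58.1, RLE scaling, no filter, fitting the compared groups alone, a replicate block, 2 surrogate variables (sva 3.50.0) and leaving out libraries. Same-numbered libraries of the same age deviated together (r over 0.1) in 2 of 8 pairs, so the numbers were not taken as pairing. The members and lists were chosen with earlier results of these data known. Values are given in every library for genes with a mean of at least 1 TPM in 1 group, full statistics for called members, the 4 smallest p where none was called, and from each partner list Fcer1g, Tyrobp, Syk, Card9 and called genes with small adjusted p. Positions and promoters are from RefSeq on GRCm38.p6, shared 50-base stretches from GENCODE transcripts.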

Additional observations from a re-analysis of the deposited data

Results flagged for a closer look

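In 136 gene and group combinations, 7 (5.15%) held a library far from the other 3 of its group, and chance flags about 1 in 20. Ctrl replicate 1 at 8 weeks stood high for Cd209b, at 23.2 CPM against 11.9 to 13.0 CPM, and for Clec4e, at 2.15 CPM against 0.635 to 0.677 CPM. Ctrl replicate 4 at 8 weeks stood high for Cd33, at 14.7 CPM against 9.70 to 10.3 CPM. OE replicate 1 at 8 weeks stood high for Clec16a, at 73.7 CPM against 52.7 to 55.6 CPM. Ctrl replicate 2 at 20 weeks stood low for Siglech, at 0.596 CPM against 1.96 to 2.40 CPM. Ctrl replicate 2 at 8 weeks had 0 CPM of Clec4a4, against 0.295 to 0.372 CPM, and Ctrl replicate 3 at 20 weeks had 0 CPM of Clec2l, against 0.0869 to 0.109 CPM.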

How the results depend on the processing

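The 0 calls between genotypes, in the difference of age changes and in the genotype average held under every alternative run. In Ctrl, 17 of the 22 age calls held whichever library was left out, and in OE 8 of 12. With 2 surrogate variables, which also lowered the calls over all genes to 252 higher and 99 lower in Ctrl and 889 and 394 in OE, the Ctrl counts fell to 1 higher (Clec12a) and 1 lower (Mgl2) and the OE counts to 4 higher and 1 lower, while Clec5a (-0.03) and Clec4a1 (-0.24) changed sign in Ctrl; the cause was not tested. limma voom called 12 genes higher in OE, and without the filter 3 were lower in OE. Leaving out 1 library gave 9 to 13 higher and 8 to 10 lower in Ctrl and 7 to 9 higher and 1 to 6 lower in OE; the OE lower count was 2 without OE replicate 1 or 3 at 8 weeks, 3 without OE replicate 4 at 8 weeks, and 1 without OE replicate 2 or 4 at 20 weeks. With the replicate block, which has no support as a pairing (correlations of same-numbered libraries of -0.597 to 0.826), Ctrl had 11 higher and 9 lower, OE 7 and 4, and the genotype comparisons 0. Without the 2 libraries with epididymal transcripts the counts were 12 and 9 in Ctrl and 10 and 5 in OE. Without replicate 1 of both 8-week groups they were 13 and 9 in Ctrl and 9 and 4 in OE, and without OE replicate 1 at 20 weeks as well 13 and 9, and 10 and 5. Without replicate 1 of both 8-week groups the OE calls for Cd209c (adjusted p = 0.0739) and Cd209d (0.0625) had already ended. So had the Ctrl calls for Cd209g (0.0658) and Clec12b (0.0631). Without OE replicate 1 at 20 weeks as well, these stayed lost (0.0888, 0.0865, 0.0731 and 0.0690). The OE call for Cd209a was then lost too (0.0714). Depth limits Siglec15 at 8 weeks, Clec2l at 20 weeks and the genes under 1 CPM.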
